A study of Caenorhabditis elegans with 10 samples.

Results

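The regions described here are HPL-1 peaks of the intestine that overlap no HPL-2 peak. They were chosen by the coordinates of the deposited peaks, as the intervals of the HPL-1 intestine peak list that share not even 1 bp with any interval of the HPL-2 intestine list or of the HPL-2 hypodermis list. This left 778 of 1346 HPL-1 peaks (57.8%), out of 4583 peaks in the 3 lists. The other 568 HPL-1 peaks serve for comparison below; 200 of them overlapped an HPL-2 peak of the intestine alone, 193 one of the hypodermis alone and 175 peaks of both tissues.

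The profiles come from DamID-seq, in which a protein is fused to the bacterial adenine methyltransferase Dam and marks GATC sites near the places it visits. Whole Caenorhabditis elegans L4 larvae were collected, and the fusion alone restricts the signal to a tissue. The groups were HPL-1::Dam in intestine (strain MRS579), HPL-2::Dam in intestine (MRS580), HPL-2::Dam in hypodermis (MRS578), and the controls GFP::Dam in intestine (BN1051) and GFP::Dam in hypodermis (BN561), with 2 libraries each. The labels name neither the promoters that drive the fusions nor any further allele, and both intestine profiles were set against the same control group. Each list was made by the authors from an averaged profile relative to Dam at an FDR of 0.05, so no value below has a replicate error and no difference below was tested. Because DNA and not RNA was measured, tissue markers cannot be used to check the labelled tissue. A region without an overlapping HPL-2 peak is one where none was called, which does not show that HPL-2 was absent.

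HPL-1 and HPL-2 are the worm members of the heterochromatin protein 1 family, whose chromodomain recognises methylated lysine 9 of histone H3. In this animal that mark lies mainly on the outer parts of the chromosomes, the arms, which are rich in repeats and in young gene families, while the centres hold many conserved genes. The intestine is the main digestive and fat-storing organ, and the hypodermis is the epidermis that secretes the cuticle.

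HPL-1-only regions had a lower median score than each other class of HPL-1 peaks, but not the lowest median width. Their scores, on a scale that the authors' lists do not state, lay between 0.37 and 1.59 with a median of 0.640, against a median of 0.720 in the other HPL-1 peaks. The medians in the peaks that overlapped HPL-2 of the intestine alone, of the hypodermis alone and of both tissues were 0.690, 0.720 and 0.770. HPL-1-only regions were between 36 and 3697 bp wide, with a median of 595.0 bp against 680.5 bp in the other HPL-1 peaks. The median was 578.0 bp in peaks that overlapped HPL-2 of the intestine alone, 672.0 bp with hypodermis alone and 819.0 bp with both. A width of 1000 bp or more was reached by 91 HPL-1-only regions (11.7%) and by 149 of the others (26.2%). In the same classes of overlap, in the same order, this share was 20.5%, 21.8% and 37.7%. An FDR of 0.01 or below was given to 346 HPL-1-only regions (44.5%) and to 377 of the others (66.4%). Score, width and FDR come from the same peak call as the rule, and a wider peak has more room to overlap another, so these values are a description only. HPL-1-only regions made up 12 of the 50 (24.0%), 31 of the 100 (31.0%) and 80 of the 200 (40.0%) highest scoring HPL-1 peaks. Each share lay below the 57.8% that they make up of all HPL-1 peaks.

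**Figure D1:**
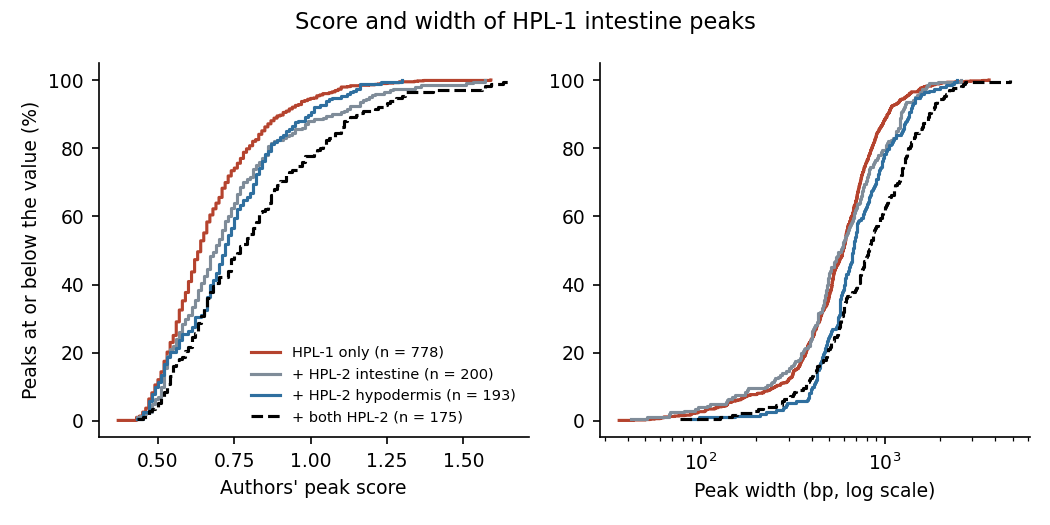
Cumulative share of HPL-1 intestine peaks at or below a given score of the authors (left) and width in bp on a log axis (right), with 1 line per class of overlap with the HPL-2 lists. The line of the 778 HPL-1-only regions lies to the left in score, with a median of 0.640, and that of the 175 peaks overlapping both HPL-2 lists lies to the right, with a median of 0.770.

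HPL-1-only regions lay at very different distances from HPL-2 peaks, and the rule requires only that they do not overlap. The gap to the nearest HPL-2 peak of either tissue had a median of 13.9 kb, with quartiles of 3.88 and 38.2 kb. It was below 1 kb for 79 regions (10.2%), below 10 kb for 331 (42.5%) and 100 kb or more for 53 (6.81%). The region farthest from any HPL-2 peak lay within ccz-1 (chromosome V, 13680856 to 13681510, score 0.59), 281 kb from its nearest HPL-2 peak. Just inside the rule stood a region over the pseudogene F47H4.12 on chromosome V, with a score of 0.73 and 9 bp from a hypodermis peak, and a region on chromosome II, with a score of 0.62 and 39 bp from an HPL-2 intestine peak. The next closest was the region at the edge of Y18D10A.4, with a score of 1.29 and a gap of 46 bp. Just outside the rule, 11 HPL-1 peaks shared a single bp with an HPL-2 peak, among them peaks over mcm-4 (score 0.73), unc-89 (0.72) and dip-2 (1.01), and 22 in all shared fewer than 50 bp. The other HPL-1 peaks were mostly covered in full, with a median of 100% of their length under HPL-2 peaks. HPL-1-only regions had a median gap of 35.5 kb to each other, and 130 (16.7%) had another within 5 kb.

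The regions lay along the whole chromosomes, whereas HPL-1 peaks shared with HPL-2 were concentrated on the arms. With arms taken as the outer parts after division of each chromosome into 3 equal parts, 478 HPL-1-only regions (61.4%, exact binomial interval 57.9% to 64.9%, counting error only) and 520 of the other HPL-1 peaks (91.5%, 89.0% to 93.7%) lay on arms. Arms make up 66.7% of the length and hold 62.2% of protein-coding genes. At an FDR of 0.01 or below in all 3 lists the shares were 67.2% of HPL-1-only regions and 91.3% of the other HPL-1 peaks, so that the share of HPL-1-only regions no longer lay below that of length. Of the HPL-1 peaks in the centres 86.2% were HPL-1 only, and of those on the arms 47.9%. The shares on arms were 90.5% in peaks that overlapped HPL-2 of the intestine alone, 88.6% with hypodermis alone and 96.0% with both. The rule bears on this difference, because HPL-2 peaks are themselves denser on arms. HPL-2 intestine peaks numbered 22.0 per Mb on arms and 5.80 in centres, and hypodermis peaks 20.8 and 5.48. HPL-1-only regions numbered 7.15 per Mb on arms and 8.98 in centres, and all HPL-1 peaks 14.9 and 10.4. Among HPL-1-only regions less than 1 kb from an HPL-2 peak 83.5% were on arms, and among those 100 kb or more away 20.8%.

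**Figure D2:**
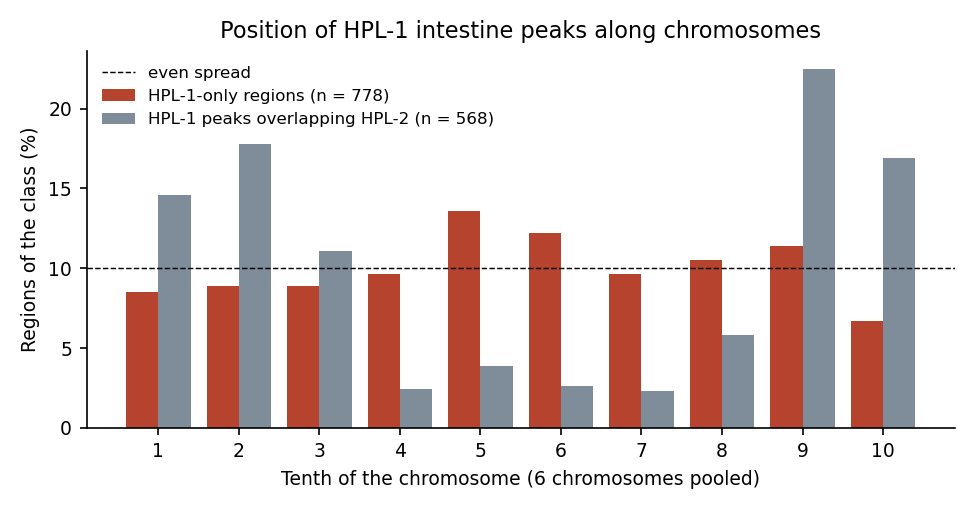
Share of HPL-1-only regions (red) and of the other HPL-1 intestine peaks (grey) in each of 10 equal parts of the chromosome by peak midpoint, with the 6 chromosomes pooled. The HPL-1-only regions range from 6.68% in the last part to 13.6% in the fifth, while the other peaks range from 2.29% in the seventh to 22.5% in the ninth.

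On every chromosome the share on arms was lower in HPL-1-only regions than in the other HPL-1 peaks, but on X the intervals overlapped widely. On chromosome IV 48.1% of HPL-1-only regions and 91.1% of the others were on arms, on I 66.4% and 96.0%, on II 61.9% and 93.3%, on III 59.8% and 86.4%, and on V 60.9% and 94.1%. On X the shares were 70.1% (60.5% to 78.6%) and 77.4% (63.8% to 87.7%). Chromosome V held the most HPL-1-only regions, 197 or 9.42 per Mb, with I and II close in density at 9.09 and 9.10. X had the lowest density, with 107 or 6.04 per Mb, and IV was close at 6.06. X and IV had the highest proportions of HPL-1-only regions among their HPL-1 peaks, 66.9% and 65.4%, and V the lowest, 51.2%.

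**Figure D3:**
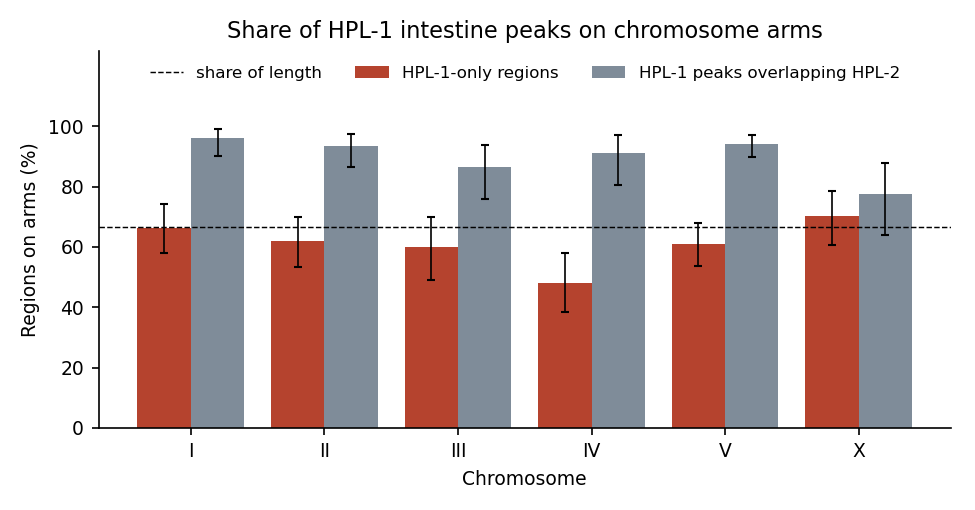
Share of HPL-1-only regions (red) and of the other HPL-1 intestine peaks (grey) on chromosome arms, per chromosome. Whiskers are 95% exact binomial intervals, which cover counting error only, and the dashed line marks the 66.7% of length that arms make up. Chromosome IV has the lowest red bar, at 48.1%.

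Of the 103 bins of 1 Mb, 101 held at least 1 HPL-1-only region. The fullest was the Mb starting at 8 Mb on chromosome IV, with 20 HPL-1-only regions and 0 other HPL-1 peaks. Its scores ranged from 0.46 to 1.25 and 18 of the 20 regions lay over a protein-coding gene, where 77.4% of all HPL-1-only regions do. This bin was singled out after its count was seen. It included the collagen gene col-3 (score 1.25), the nuclear hormone receptor gene nhr-31 (0.96), vha-5 (0.85), which encodes a subunit of the vacuolar proton pump, the cell adhesion gene sax-7 (0.71) and the kinesin gene klp-11 (0.65). A different picture was seen in the Mb starting at 17 Mb on chromosome V, where 15 HPL-1-only regions stood beside 50 other HPL-1 peaks.

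HPL-1-only regions lay mostly inside genes. A protein-coding gene body was under 602 of them (77.4%), against 408 of the other HPL-1 peaks (71.8%). Of the 602 regions, 457 (75.9%) lay wholly within a gene body, 137 (22.8%) crossed a gene edge and 8 spanned a whole gene. Of the sequence in HPL-1-only regions 66.9% was in protein-coding gene bodies, against 60.4% in the other HPL-1 peaks and 61.9% of the genome. No annotated gene of any kind lay under 113 HPL-1-only regions (14.5%). Centre and arm regions had like scores, with medians of 0.630 and 0.640, and a protein-coding gene was under 81.0% of centre regions and 75.1% of arm regions.

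In all 606 protein-coding genes lay under HPL-1-only regions, 3.03% of the 19971 in the gene table. Long genes were touched more often. Of the 4992 longest genes, those above 3.59 kb, 5.91% lay under a region, and of the 4995 shortest, up to 1.21 kb, 1.52%. The median length was 3.44 kb, against 3.30 kb for genes under the other HPL-1 peaks and 2.01 kb for all protein-coding genes. Under the other HPL-1 peaks the longest and shortest sets had 3.61% and 1.36% of their genes. An HPL-2 peak of either tissue lay elsewhere over 98 of the 606 genes (16.2%), where 9.85% of all protein-coding genes carry one. These 98 genes had a median length of 10.7 kb, and the 508 without any HPL-2 peak one of 2.98 kb, so the share is not adjusted for length.

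The highest scoring regions lay over genes of varied function. Among the 20 with the highest scores, 1.1 to 1.59, a protein-coding gene lay under 17, and 11 of the 20 were in chromosome centres. Of all 778 regions 77.4% lay over a protein-coding gene and 300 were in centres. The highest score, 1.59, was that of a region within C11G6.2 on X (16329744 to 16330090), 51.2 kb from the nearest HPL-2 peak. The next was within atfs-1, which encodes a regulator of the mitochondrial stress response, and an HPL-2 intestine peak lay 1.32 kb away. More isolated was the region within the ribosomal S6 kinase gene rskn-1 (chromosome I, 8574329 to 8574936, score 1.34), 175 kb from an HPL-2 peak. The region within sma-1, the gene of a spectrin that shapes epithelial cells, scored 1.35, and that within the adenylyl cyclase gene acy-1 scored 1.29. At the edges of rips-1 (1.27) and col-3 (1.25) the regions shared 163 and 36 bp with the gene, so that most of each lay outside it. The others of this set with a gene name were unc-44 (1.23), which encodes an ankyrin of the neuronal cytoskeleton, the fatty acid synthase gene fasn-1 (1.19), the Slit-Robo GTPase-activating gene srgp-1 (1.12), the ryanodine receptor gene unc-68 (1.1), bath-29 (1.1) and pdzd-8 (1.1), the last with an HPL-2 intestine peak at 0.143 kb.

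The widest regions were a different set, with no member in common with the 20 of highest score. The widest spanned 3697 bp at the edge of perm-4 (chromosome IV, 1119524 to 1123220), a gene named for the permeability barrier of the eggshell, with a score of 0.58. Its FDR by the authors was 0.0367, the highest among HPL-1-only regions. One of 3416 bp (chromosome II, 8418510 to 8421925, score 1.08) ran from the glucose transporter gene fdgt-2 to F14E5.8. One of 2928 bp lay within mup-4 (III, 7482261 to 7485188, score 0.78, the authors' FDR 2.6e-12), which encodes a matrix receptor that anchors the epidermis. Others lay over nlp-99 and the neprilysin gene nep-2 (2745 bp), fasn-1 (2432 bp), the mitochondrial import gene tin-13 with its neighbours (2180 bp), the phospholipase C gene egl-8 (2053 bp) and the germ granule gene meg-4 (2015 bp). The FDR was 0.0367 over nlp-99 and nep-2 and 0.0213 over egl-8. It was 8.6e-13 over fasn-1, 0.000105 over tin-13 and 3.9e-09 over meg-4.

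The last of the 10 widest lay within hpl-2 itself (chromosome III, 10752822 to 10754700, 1879 bp, score 0.62), the gene of the other heterochromatin protein 1. It took 1879 bp of a gene of 3.34 kb. The gene held 0 peaks in either HPL-2 list, and the nearest HPL-2 peak stood 1.88 kb from the region. The gene hpl-1 on X held 0 peaks in all 3 lists. Among 19 genes of H3K9 methylation and heterochromatin, hpl-2 was the only 1 under an HPL-1-only region (5.26%, against 3.03% of all protein-coding genes). This 1 region took 2.02% of the sequence of the list. Its FDR by the authors was 0.0129, so it does not pass a limit of 0.01.

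Several genes, most of them long, held more than 1 HPL-1-only region, though the shortest measured only 1.84 kb. There were 31 genes with 2, 4 with 3 and 1 with 6. The gene with 6 was unc-44 (chromosome IV, 5975557 to 6004857, 29.3 kb), whose regions scored 0.59, 0.47, 0.84, 1.23, 0.71 and 0.48 in order of position. They all lay toward the higher-coordinate end, and the gene also held 2 HPL-2 intestine peaks and 1 hypodermis peak. The genes with 3 were fasn-1, let-805, lrp-1 and mua-3. In fasn-1 (I, 8975366 to 8986540, 11.2 kb) the scores were 0.57, 0.84 and 1.19, the regions took 44.3% of the gene, and neither HPL-2 list had a peak over it. In lrp-1, which encodes a megalin-related receptor of the epidermis needed for molting, the scores were 1.02, 0.83 and 0.63, also with 0 HPL-2 peaks. The matrix receptor gene mua-3 (scores 0.85, 0.51 and 0.57) likewise had 0 HPL-2 peaks. By contrast let-805, the gene of myotactin, which ties epidermis to muscle, had HPL-1-only regions of 0.6, 0.67 and 0.64 among 6 HPL-2 intestine peaks and 1 other HPL-1 peak.

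**Figure D4:**
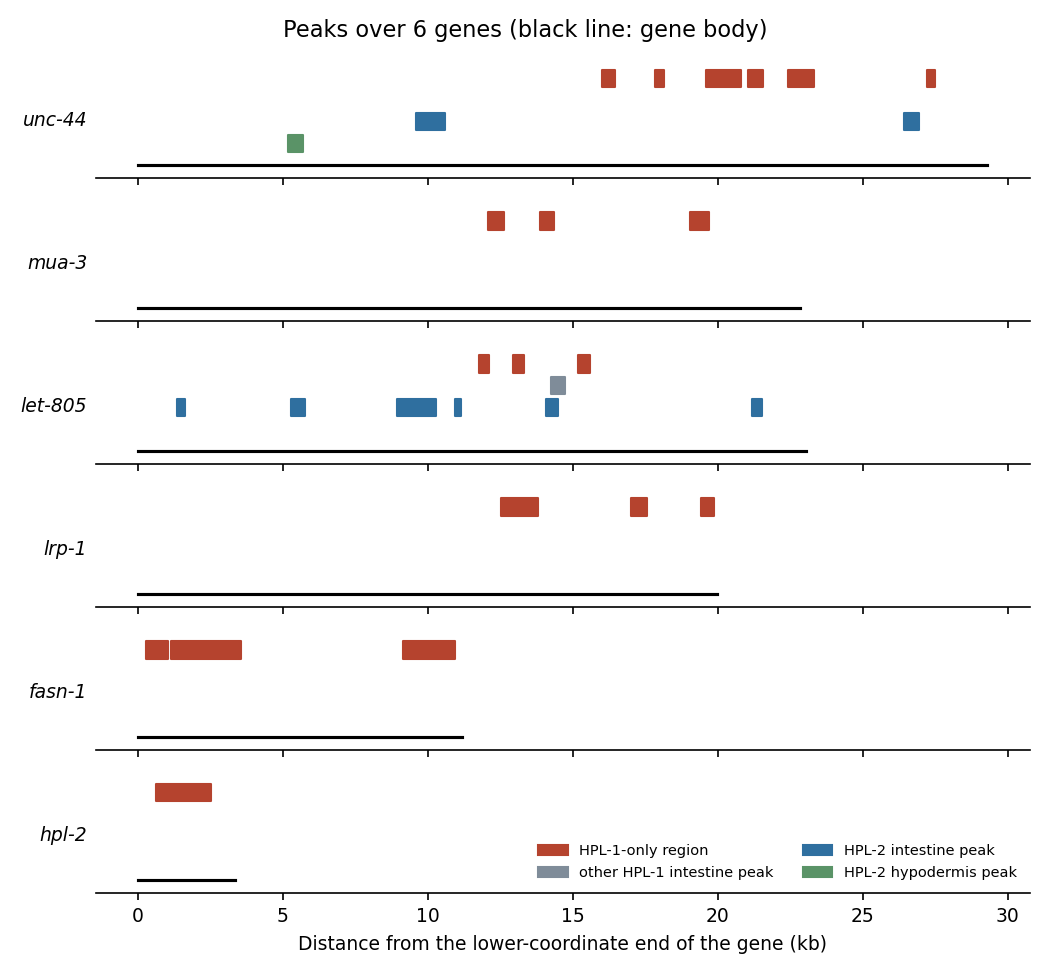
Peaks over unc-44, mua-3, let-805, lrp-1, fasn-1 and hpl-2, drawn in kb from the lower-coordinate end of each gene body (black line). Red bars are HPL-1-only regions, grey bars other HPL-1 intestine peaks, blue bars HPL-2 intestine peaks and green bars HPL-2 hypodermis peaks. The genes mua-3, lrp-1, fasn-1 and hpl-2 carry red bars alone.

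Gene groups were read against the 3.03% of all protein-coding genes. For the other HPL-1 peaks the share to read against is 1.97%, or 393 of all protein-coding genes. Regions took 0.538% of all protein-coding gene sequence, and this share is given for each group with a gene under a region as well because groups differ in gene length. The groups overlap, since qua-1 and wrt-2 are in both the epidermal and the hedgehog-related list. Near-identical copies within the large families can share reads, and how such reads were aligned is not given in the sources used here.

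Of the 18 lists, the epidermal genes had the highest share of genes under regions, but not the highest share of sequence. Among 26 epidermal genes 3 (11.5%) lay under other HPL-1 peaks, also above the 1.97% of all protein-coding genes under such peaks. HPL-1-only regions lay over 7 of the 26 (26.9%, against 3.03% of all protein-coding genes). Besides sma-1 they were the epidermal GATA factor gene elt-3 (score 0.79, with 2 regions), the molting gene mlt-11 (0.77), the hedgehog-related qua-1 (0.7), the spectraplakin gene vab-10 (0.66), wrt-2 (0.57) and the fibrillin-related fbn-1 (0.55). Regions took 1.35% of the sequence of the 26 genes, whose median length was 5.40 kb. This share of sequence was below the 1.93% of MATH and BTB genes and the 1.42% of neuropeptide and insulin-like genes. It was also below the 2.02% of the H3K9 methylation and heterochromatin list, which rests on 1 region. An HPL-2 peak lay elsewhere in 3 of the 7, elt-3, mlt-11 and vab-10, and 38.5% of the epidermal list carried one. Of 86 hedgehog-related and patched-related genes 8 (9.30%, 1.05% of sequence) were under regions. They were led by grd-13 (0.87, with 48 bp shared), qua-1, wrt-6 (0.6) and wrt-2. The other HPL-1 peaks lay over 5 of the 86 (5.81%), also above the 1.97% of all genes. Of 176 cuticle collagen genes 7 (3.98%, 0.792% of sequence) were under HPL-1-only regions. These were col-3, col-94 (0.9), col-144 (0.76), col-168 (0.65), col-79 (0.55), col-113 (0.52) and col-153 (0.49). In the whole collagen list 46.6% of genes carried an HPL-2 peak and none of these 7 did, but collagen genes are short, with a median of 1.22 kb, so that a region chosen for lacking an HPL-2 peak leaves little of the gene in which one can lie.

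**Figure D5:**
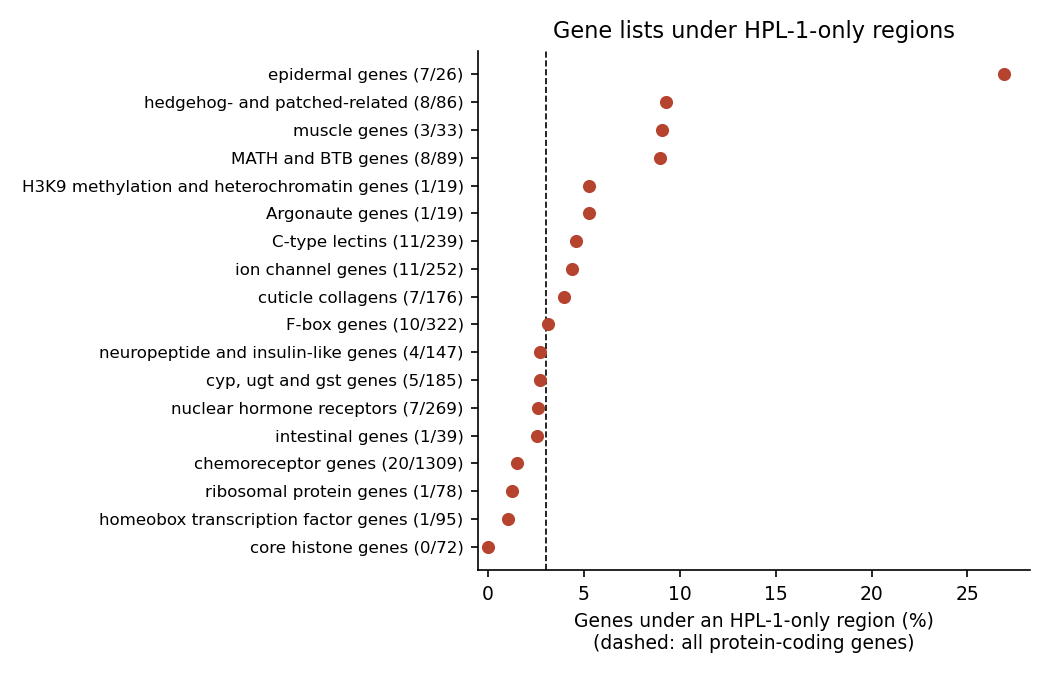
Percent of the protein-coding genes of each list under an HPL-1-only region, with the number of such genes and the size of the list beside each name. The dashed line marks the 3.03% of all protein-coding genes. Epidermal genes stand at 26.9% and core histone genes at 0.

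Among the large gene families of the arms, MATH and BTB genes, which encode adaptors of ubiquitin ligases, had 8 of 89 under regions (8.99%, 1.93% of sequence). They were led by bath-29 (1.1), bath-21 (0.83) and the neighbours btb-19 and btb-20 under 1 region (0.8). The other HPL-1 peaks lay over 5 of the 89 (5.62%), also above the 1.97% of all genes. All 8 genes under HPL-1-only regions were on chromosome II. How many of the 89 lie there was not counted, so their placement is no result about the regions. C-type lectins, carbohydrate-binding proteins, had 11 of 239 (4.60%, 1.23% of sequence), led by clec-1 (0.93), clec-95 (0.88) and the neighbours clec-97 and clec-98 under 1 region (0.81). A larger number, 18 (7.53%, against 1.97% of all genes), lay under the other HPL-1 peaks. F-box genes had 10 of 322 (3.11%, 0.777% of sequence), close to the 3.03% of all genes in number, with fbxb-65 (0.86) and fbxa-184 (0.71) in front. Chemoreceptor genes had 20 of 1309 (1.53%, 0.390% of sequence), with srv-7, srw-85 and srz-32 at 0.87 each. The region over srz-32, 537 bp wide, is the same as that over grd-13. It shared only 56 bp with srz-32 and 48 bp with grd-13. Regions over any of these 4 families made up 8.37% of the arm regions and 1.67% of the centre regions, and 81.2% of the family genes lie on arms.

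Groups tied to the intestine or to general cell functions had shares of genes close to the 3.03% of all genes or below it. Of 39 intestinal genes 1 (2.56%, 0.635% of sequence) lay under a region, the yolk protein gene vit-3, with the lowest score of all 778, 0.37. The share of genes of the intestinal list thus rests on 1 gene, and its share of sequence lay above the 0.538% of all genes. Genes of cytochrome P450 enzymes, UDP-glucuronosyltransferases and glutathione S-transferases, which detoxify small molecules, had 5 of 185 (2.70%, 0.440% of sequence), led by cyp-33C1 (0.67) and ugt-67 (0.57). Nuclear hormone receptors had 7 of 269 (2.60%, 0.443% of sequence), with nhr-31 (0.96), nhr-241 (0.92) and nhr-27 (0.81, 2 regions) highest. Core histone genes had 0 of 72 and ribosomal protein genes 1 of 78 (1.28%, 0.0591% of sequence), rpl-12, under the narrowest region of all, 36 bp.

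Genes of excitable cells gave mixed shares. Ion channel genes had 11 of 252 (4.37%, but 0.415% of sequence), led by del-5 (0.86), twk-36 (0.78) and the calcium channel gene egl-19 (0.67, 2 regions). Neuropeptide and insulin-like genes had 4 of 147 (2.72%), below the 3.03% of all genes, while regions took 1.42% of the sequence of these short genes (median 0.903 kb), above the 0.538% of all genes. The 4 were flp-8 (0.84), nlp-99 (0.76), nlp-52 (0.59) and nlp-31 (0.58). Of 33 muscle genes 3 (9.09%, 0.689% of sequence) were under regions, namely unc-68 (1.1, 2 regions), the twitchin gene unc-22 (0.98) and the titin gene ttn-1 (0.58). The other HPL-1 peaks lay over 7 of the 33 (21.2%, against 1.97% of all genes), and 66.7% of the list carried an HPL-2 peak. Both unc-22 and ttn-1 also held HPL-2 peaks of both tissues. The homeobox list had 1 of 95 (1.05%, 0.194% of sequence), ceh-92 (0.71), and the Argonaute list 1 of 19 (5.26%, 0.442% of sequence), wago-1 (0.48).

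Pseudogenes lay under 59 HPL-1-only regions (7.58%) and under 74 of the other HPL-1 peaks (13.0%). The 59 pseudogenes touched are 3.07% of those in the gene table, and 54 of the 59 regions lay on arms, where 79.7% of pseudogenes are found. Chromosome V held 27 of these regions and X held 0, where V holds 25.3% and X 13.8% of all HPL-1-only regions. How the pseudogenes of the gene table divide among the chromosomes was not counted. The highest scoring was srh-307, a pseudogene of a chemoreceptor family (score 1.09). RNA genes of the ncRNA type numbered 60 under 43 regions, 0.773% of that type, with T14D7.4 (1.13) highest. Of the piRNA genes, which encode small RNAs that silence foreign sequence in the germ line and of which 95.8% lie on chromosome IV, 16 (0.104%) lay under 10 regions. Chromosome IV held 6 of these regions, and 6 of the piRNA genes were under a single region (IV, 14610362 to 14610863, score 0.68).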

How the data were processed

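The authors deposited 1 peak list per HPL fusion and tissue, and its name gives an averaged profile relative to Dam and an FDR of 0.05. The submitters' processing notes name the tools SAMtools 1.9, R 3.4.3 and Bowtie2 2.3.4 and the genome build WBcel235 (ce11); library depth and peak caller: not given in the sources used here. Per the labels' protocols, larvae were harvested after 48 h at 20 °C, and libraries were made from 200 ng of DNA. The deposited lists hold a peak score by the authors, on an unstated scale, used only within the HPL-1 list, and as other values the chromosome, start, end and FDR of each peak. The assay resolves binding only down to GATC fragments, and strong methylation by GFP-Dam at a place makes it harder for a peak to pass there. The labels do not say whether the 2 libraries of a group came from separate cultures.

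Overlaps were computed in Python 3.11.15 with pandas 2.3.3 and checked on simulated intervals. Peaks and genes were called overlapping at 1 bp or more. Genes came from a RefSeq table of WBcel235 with 46890 genes on 6 chromosomes, which gives no strand, exons or repeats; the planned promoter windows were not used here. Chromosome extents ran to the furthest gene or peak end, 100.3 Mb in all. Intervals are exact 95% binomial (scipy 1.17.1).

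The regions and gene lists were chosen with earlier results of these data known, so no test was made on them. The patterns of the homeobox and chemoreceptor lists were corrected after a first run, in which the homeobox pattern had wrongly taken in unc-44. Named genes are those under the 20 highest scoring and 10 widest regions, those with 3 or more regions and up to 4 per list. Where a list is given in full or a single locus or Mb is described, its genes were chosen after their values were seen.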

Additional observations from a re-analysis of the deposited data

How the results depend on the processing

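Of 40 alternatives to the reported values, 25 stayed within the 95% binomial interval (counts: within 1.5 times) and 15 did not. With an FDR of 0.01 or below in all 3 lists there were 402 HPL-1-only regions over 325 protein-coding genes, with a median score of 0.740 and a median width of 670.5 bp, and 67.2% lay on arms, slightly above the 66.7% of length. The other HPL-1 peaks then stood at 91.3%. With that FDR for HPL-1 alone there were 346 regions over 291 genes, with medians of 0.730 and 670.5 bp. With arms as the outer parts of 4 equal parts, 50% of length, 45.1% of the regions lay on arms. Regions over a protein-coding gene were 86.2% when genes were widened by 1 kb at both ends and 68.6% by region midpoint. Genes with an HPL-2 peak elsewhere were 10.4% when an HPL-2 peak within 1 kb counted as shared, 21.8% when 50% of a peak had to be covered, and 22.5% when all peaks were cut to 500 bp at their midpoints.

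No paired analysis was possible because the lists are averages and hold no value per replicate, and leaving out a replicate was not possible for the same reason. The promoter window alternatives were not run. The depth of the libraries is unknown, so no limit of detection is given for the HPL-2 peaks that define the regions.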

Other observations

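After the values had been seen, 9 genes of the epidermal hemidesmosomes, the attachments that carry muscle force through the epidermis to the cuticle, were looked up as a further list. Of these, 6 lay under HPL-1-only regions, and 12 regions took 5.31% of their sequence. They were the intermediate filament gene ifb-1 (score 1.07), mua-3 (0.85), mup-4 (0.78), let-805 (0.67), vab-10 (0.66) and pat-12 (0.58). HPL-2 peaks lay elsewhere in 3 of them, let-805, vab-10 and pat-12. Because the list was made after mua-3, mup-4 and let-805 had been seen, its share is no evidence on the group.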
